A study of Mus musculus with 10 samples.

Results

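Cytosolic ribosomal protein genes were examined in the gastrocnemius, a calf muscle, of mice that lost myostatin as adults and of control mice. The set holds 55 genes chosen by symbol, 35 of the large and 20 of the small ribosomal subunit, among 18193 genes that a probe set names alone on the array. Of the 55, 35 had such a probe set (18 large, 17 small), and 33 (17 large, 16 small) were bright enough to test (mean log2 over the 10 arrays at least 4). The deposited values are linear array intensities, and all levels and differences below are on the log2 scale.

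All 10 animals were 7.5-month-old males on a C57BL/6 background, and every one carried the CAGG-CreER transgene, a tamoxifen-activated Cre recombinase under a broadly active promoter. All of them, controls included, were given 8 tamoxifen injections from the age of 4 months. The 5 Floxed_Mstn mice (knockouts) had floxed myostatin genes, which Cre deletes, and the 5 WT_Mstn mice (controls) had normal ones. The deletion was therefore not limited to muscle, and both groups had the recombinase and the drug. The targeted transcript was not analysed here and gives no check of the labels.

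Each ribosome joins a small subunit, which reads the messenger RNA, to a large subunit, which forms the peptide bonds, and each subunit is built from ribosomal RNA and many different proteins. Myostatin restrains muscle growth, and growth of muscle fibres draws on ribosome number and on mTOR signalling. The messenger RNAs of ribosomal proteins belong to the TOP class: they start with a C followed by a run of C and T (a terminal oligopyrimidine tract), through which mTOR and the binding protein Larp1 set their translation. An array measures the amount of these messenger RNAs and not their translation or the number of ribosomes.

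The start sites of members were searched for the tract that marks this class. In the RefSeq table of promoters (GRCm38.p6) 44 of the 55 members had an entry, with 52 start sites. A C at the start followed by at least 4 bases that are C or T was found at 10 of the 52 (19.2%), against 2.51% of all 32851 starts in the table. The 7 below belong to members that were tested. Each line gives 15 bases before and 15 bases from the start on the strand of the gene, with the tract in capitals, as far as the window reaches.
Rpl35 (chr2:39005117-39005146, minus strand): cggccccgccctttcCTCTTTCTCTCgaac
Rplp2 (chr7:141447636-141447665, plus strand): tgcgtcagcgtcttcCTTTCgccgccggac
Rpl14 (chr9:120571502-120571531, plus strand): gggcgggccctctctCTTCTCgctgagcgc
Rpl38 (chr11:114668565-114668594, plus strand): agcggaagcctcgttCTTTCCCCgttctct
Rps6 (chr4:86857353-86857382, minus strand): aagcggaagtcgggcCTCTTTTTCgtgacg
Rps10 (chr17:27635230-27635259, minus strand): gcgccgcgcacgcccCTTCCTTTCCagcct
Rps18 (chr17:33955651-33955680, minus strand): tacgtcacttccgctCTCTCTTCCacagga
Both subunits are represented, with tracts at 6 of 30 large and 4 of 22 small subunit starts. An annotated start can lie a few bases from the true one, and a run of at least 7 bases of C or T lay between 10 bases before and 40 bases after the start at 33 of the 52 (63.5%), against 27.7% of all starts.

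Members also shared letters upstream of the start. CGGAAG, the core letters of sites for ETS factors, was found on either strand of the promoter window (250 bases before to 50 after the start) at 30 of 52 member starts (57.7%) and at 16.9% of all starts. GGGCGG, the core of Sp1 sites, was found at 32 of 52 (61.5%) against 35.7%. TATAAA was found at 3 of 52 (5.77%) against 13.6%, and AAGATGGC, letters of the YY1 site, at 2 of 52 (3.85%) against 2.75%. The CGGAAG match lay at 16 of 30 large and 14 of 22 small subunit starts. The 100 bases before the start of 3 members are shown, those among the 7 tested members above that carry it more than once in this stretch, with CGGAAG and its reverse complement in capitals.
Rps6 (chr4:86857368-86857467, minus strand): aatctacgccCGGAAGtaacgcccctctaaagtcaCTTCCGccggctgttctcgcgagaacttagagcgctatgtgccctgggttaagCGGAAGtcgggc
Rps18 (chr17:33955666-33955765, minus strand): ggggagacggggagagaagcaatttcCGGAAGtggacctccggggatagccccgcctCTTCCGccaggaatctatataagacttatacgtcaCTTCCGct
Rpl38 (chr11:114668480-114668579, plus strand): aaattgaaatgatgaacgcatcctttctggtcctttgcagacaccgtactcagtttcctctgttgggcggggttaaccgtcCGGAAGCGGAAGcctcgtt
These matches describe the letters of the reference promoters and are not binding data.

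On the arrays, no tested ribosomal protein gene was called higher or lower in knockouts. None of the 33 tested members passed an adjusted p of 0.05 in either direction in limma, where 0.0520% of all 21154 probe sets tested were called higher and 0.0473% lower. No member reached an unadjusted p under 0.05 either, against 3.89% of all 10704 tested genes higher and 5.02% lower, and in no member were the groups free of overlap (1.32% of genes higher, 1.31% lower). The lowest p belonged to Rpl14 (0.0638 before and 0.694 after Benjamini-Hochberg adjustment, limma). Differences were small: 24 members had lower and 9 had higher means in knockouts, with a median of -0.04, against -0.0049 over all genes tested, of which 51.5% had lower means. Large subunit members vary together from array to array, so the 24 of 33 is not a count of independent observations.

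The precision behind these values was high for most members. The 29 members with a mean log2 of 10 or more had a median SD within groups of 0.07, against 0.22 over all genes tested, whose median level was lower (8.57). The 13 listed muscle fibre genes, with a median level of 15.08, had a median SD of 0.05. Their 95% intervals of the difference reached no lower than -0.31 (Rplp0) and no higher than 0.29 (Rps9), which correspond to 1.24-fold lower and 1.22-fold higher. For 16 of the 33 the whole interval lay within 0.2 of 0 (48.5%), against 8.13% of all genes and 84.6% of the muscle fibre genes. Levels of 13 or more were found in 28 of the 33, on arrays whose brightest probe sets lay at 16.01 to 16.07. Signals near the top of the scale can be compressed, so these intervals bound the difference in intensity and may understate a difference in RNA.

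**Figure D1:**
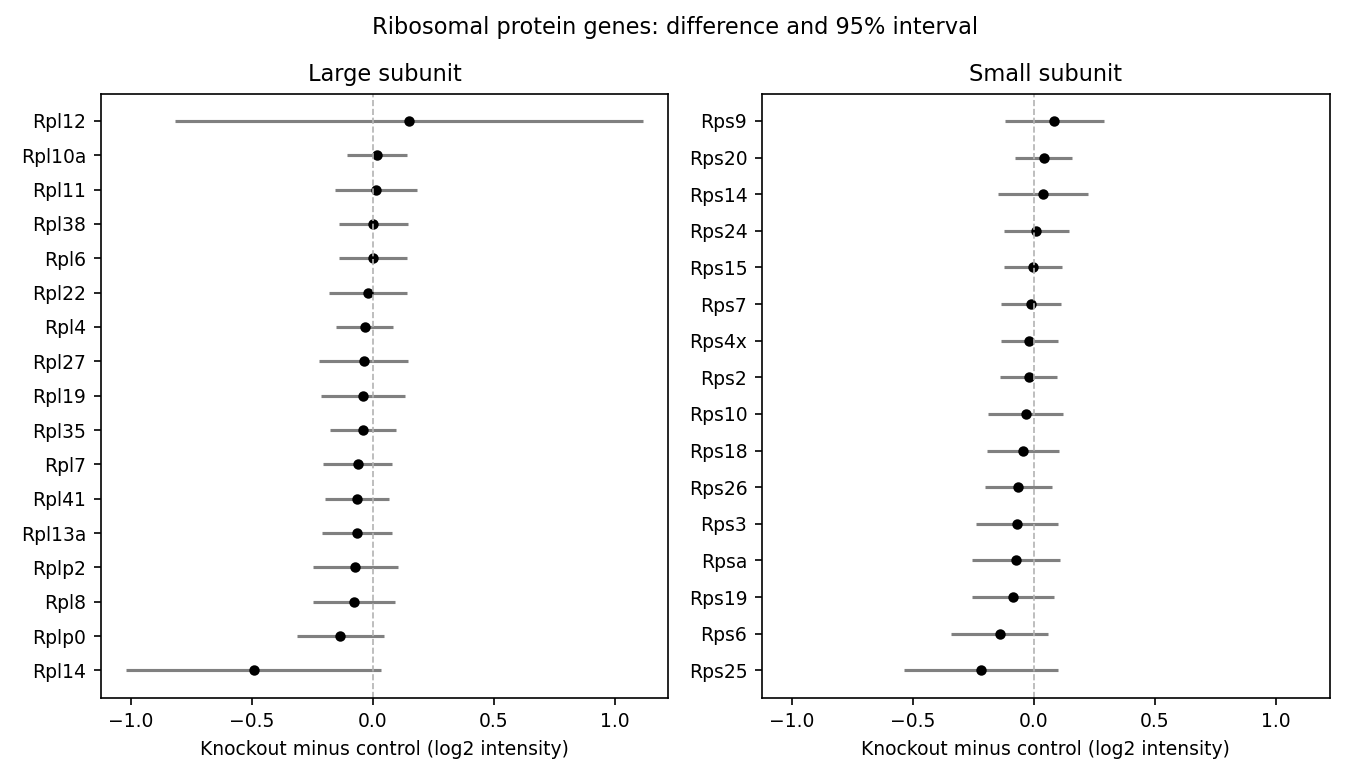
Knockout minus control difference in log2 intensity (points) with its 95% interval from limma (lines) for the 17 large and 16 small subunit members tested, with 5 arrays per group. Every interval spans 0, and only those of Rpl12, Rpl14, Rplp0, Rps6 and Rps25 reach beyond 0.3 on either side.

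Large subunit members are taken first, beginning with the stalk that recruits elongation factors. Rplp0, the scaffold of the stalk, lay at 13.91, 13.76, 13.54, 13.71 and 13.74 in controls 1 to 5 and at 13.47, 13.64, 13.60, 13.58 and 13.69 in knockouts 1 to 5. Control 1 was the highest array and knockout 1 the lowest, and the low control 3 lay within the range of the knockouts. The difference was -0.13 ± 0.08 (SE, adjusted p = 0.782, limma). Rplp2, which binds Rplp0 as part of the stalk, spanned 14.41 to 14.75 in controls and 14.43 to 14.62 in knockouts, with a difference of -0.07 (adjusted p = 0.933). Rplp0 is often used as a reference gene in quantitative PCR.

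Rpl14, a protein of the solvent side of the large subunit, had the largest difference of any member, measured on a dimmer probe set. Its levels were 7.95, 7.93, 7.28, 7.66 and 7.65 in controls and 6.60, 7.33, 6.76, 7.75 and 7.56 in knockouts. Knockouts 1 and 3 lay below every control, while knockouts 4 and 5 lay among them. The difference of -0.49 ± 0.24 (SE), 1.41-fold lower, had a 95% interval from -1.02 to 0.03. Without the 3 arrays on which added hybridisation controls were brightest (control 3, knockouts 1 and 3) it was -0.25. Probe sets that the annotation gives to a member together with other genes were not used. Rpl14 has 5 of them, Rpl12 2, Rps6 9 and Rps25 1, and these are the 4 tested members under a mean log2 of 10. The dim values given for them are thus not the array's only readings of these genes.

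Rpl12, a protein at the base of the stalk, had the widest spread. Its levels were 6.78, 6.56, 4.47, 6.19 and 5.89 in controls and 5.32, 6.28, 5.85, 6.39 and 6.78 in knockouts. Control 3 and knockout 1 were low and the groups overlapped over most of their range. The difference was 0.15 ± 0.43 (SE, adjusted p = 0.986), with a 95% interval from -0.82 to 1.12, which is 2.17-fold higher at its upper end. Its sign turned without control 3 (-0.23) and without knockout 5 (-0.01).

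Rpl41, the smallest ribosomal protein, lay at 14.67, 14.60, 14.52, 14.62 and 14.64 in controls and at 14.48, 14.62, 14.57, 14.53 and 14.54 in knockouts. Again control 3 and knockout 1 were the lowest of their groups, and the difference was -0.06 ± 0.06 (SE, adjusted p = 0.906). With the mean of its 4 probe sets, which include dim ones, the Rpl41 difference was -0.12. It was -0.14 on a dim probe set (mean level 5.93), the brightest once _x_at and _s_at sets were left out. Its other bright probe set had -0.08. Rpl4, which lines the exit tunnel of the growing peptide, ranged only from 14.69 to 14.79 over all 10 arrays (difference -0.03). Rpl35, near the tunnel exit, ranged from 14.86 to 15.03 (-0.04, or 0.01 without _x_at and _s_at sets). Rpl11, which forms a particle with 5S ribosomal RNA and can bind Mdm2, had a difference of 0.01, and Rpl38, known for its part in selective translation of Hox messages, had 0.0034. The others of the 17 (Rpl6, Rpl7, Rpl8, Rpl10a, Rpl13a, Rpl19, Rpl22 and Rpl27) had differences from -0.08 to 0.02.

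Among small subunit members, Rps6, the substrate of the S6 kinases that act below mTOR, was tight in controls and spread in knockouts. Controls lay at 9.57, 9.52, 9.57, 9.58 and 9.53, and knockouts at 9.58, 9.31, 9.35, 9.20 and 9.63. Knockouts 2, 3 and 4 lay below every control, and knockout 5 above every control. The SD was 0.03 in controls and 0.18 in knockouts (n = 5 each), and the difference in level was -0.14 ± 0.09 (SE, adjusted p = 0.802). It was -0.09 without knockout 4. The difference in spread was not tested.

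Rps25, which several viral and cellular internal ribosome entry sites need, lay at 8.47, 8.88, 8.53, 8.99 and 8.85 in controls and at 8.58, 8.88, 8.29, 8.54 and 8.32 in knockouts. Knockouts 3 and 5 were below all controls, and the difference was -0.22 ± 0.14 (SE, adjusted p = 0.809). Rps19, the gene most often mutated in Diamond-Blackfan anaemia, lay at 13.14, 13.02, 12.80, 12.97 and 13.05 in controls and at 12.85, 12.94, 12.85, 12.90 and 12.99 in knockouts. The lowest array was a control (control 3), and the difference was -0.09 ± 0.08 (SE, adjusted p = 0.894), or -0.05 without control 1 and -0.14 without control 3. Rps20 had one of the brightest signals, from 14.80 to 14.84 in controls and 14.81 to 14.90 in knockouts (0.04). Its difference was 0.18 with the mean of its probe sets and 0.36 on a dim probe set, the brightest once _x_at and _s_at sets were left out. Rps24 had 14.36 to 14.54 over all arrays (0.0092), and -0.22 on its dim probe set chosen in the same way. Its other bright probe sets, at mean levels of 14.01 to 14.41, had 0.03 to 0.05. Differences of Rps2, Rps3, Rps4x, Rps7, Rps10, Rps14, Rps15, Rps18, Rps26 and Rpsa ran from -0.07 to 0.04.

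**Figure D2:**
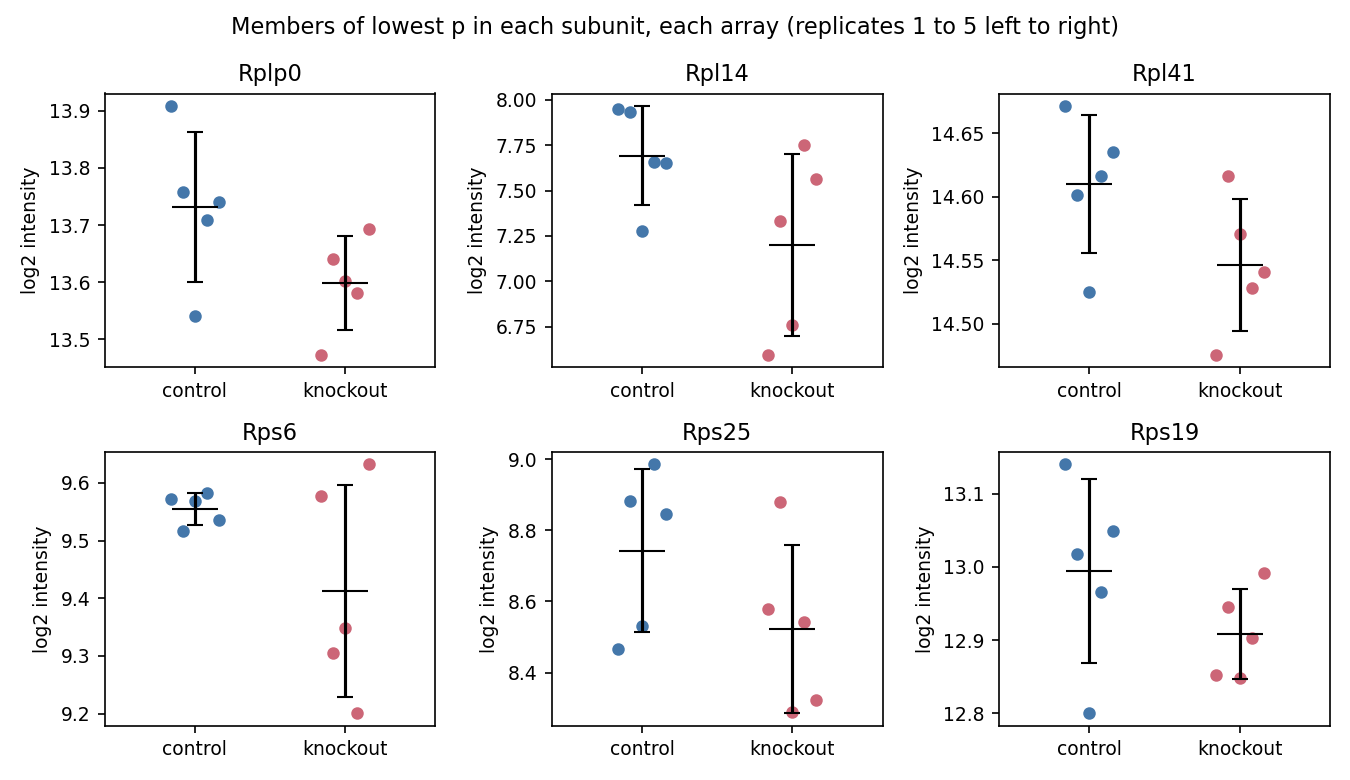
Log2 intensity on each of the 10 arrays for the 3 members of lowest p in each subunit, with the group mean and SD (n = 5 per group, replicates in number order). The groups overlap in each panel, Rps6 is tight in controls (SD 0.03) and spread in knockouts (SD 0.18), and the axes do not start at 0.

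Rps9, a small subunit protein involved in decoding accuracy, was measured by a pair of bright probe sets that moved against each other. Their names end in _x_at (the brighter) and _s_at, types whose probes can also bind other transcripts. The brighter lay at 13.16, 13.49, 13.57, 13.38 and 13.28 in controls and at 13.57, 13.33, 13.40, 13.50 and 13.50 in knockouts, a difference of 0.08 (0.03 without control 1, 0.13 without control 3 and 0.06 without knockout 1). The other lay at 13.35, 13.16, 12.93, 13.12 and 13.30 in controls and at 13.01, 13.16, 13.05, 13.20 and 13.14 in knockouts, a difference of -0.06. Control 1 was the lowest array on the first and the highest on the second. The correlation of their deviations from group means was -0.80 over the 10 arrays, given as a description. For Rps3, a protein at the entry of the messenger RNA channel, the corresponding value was -0.74, and for Rps7 -0.45.

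Over the whole set, 15 members had at least 2 tested probe sets, and in 10 of them the probe sets differed in sign. The share over all genes was not computed, and some of these differences lay close to 0, as for Rps7 (-0.01 and 0.02). None of the 68 tested member probe sets reached an unadjusted p under 0.05. The brightest probe set of 10 members was of a type whose name (ending in _x_at or _s_at) marks probes that can also bind other transcripts. Ribosomal protein genes have many processed pseudogenes of near-identical sequence, so every value here may include signal from copies and is uncertain to that extent.

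Medians of the subunits lay close together. Large subunit members had a median difference of -0.04 and small subunit members of -0.03. Averaged over the bright members of each array, the 15 large subunit genes lay at 14.08 ± 0.08 in controls and 14.04 ± 0.05 in knockouts (SD, n = 5), and the 14 small subunit genes at 13.80 ± 0.04 and 13.78 ± 0.03. The mean of all tested large minus all tested small subunit members within an array was 0.15, 0.06, -0.14, -0.02 and 0.01 in controls and -0.14, 0.04, -0.04, 0.06 and 0.07 in knockouts. These overlap throughout, and the group means differed by -0.02, against SDs of 0.11 and 0.09. A score over chosen members has no p here.

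The levels of many members moved with a feature of the arrays. The 9 probe sets of bacterial RNA added as hybridisation controls averaged 13.10, 13.20, 13.41, 13.26 and 13.20 in controls and 13.44, 13.18, 13.51, 13.25 and 13.01 in knockouts. On the 3 arrays where they were brightest (control 3, knockouts 1 and 3) all 17 large subunit members had lower means than on the other 7, with a median of -0.14, as had 10 of 16 small subunit members (median -0.06). The share of all genes tested with lower means on these arrays was not computed. Of the large subunit, 11 of 17 were lower on each of the 3 than on any other array, as were 4 of 16 small subunit members, against 15.0% of all genes tested. No member was higher on each of the 3 (3.21% of all genes). Among all genes, too, more were thus lowest than highest on these arrays. The dim Rpl12 differed by -1.20 and Rpl14 by -0.81 between those arrays and the rest. Among bright members Rpl8 differed by -0.19 (-0.08 between genotypes) and Rplp2 by -0.18 (-0.07 between genotypes). The part of labelling or hybridisation in the members' values was not tested.

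**Figure D3:**
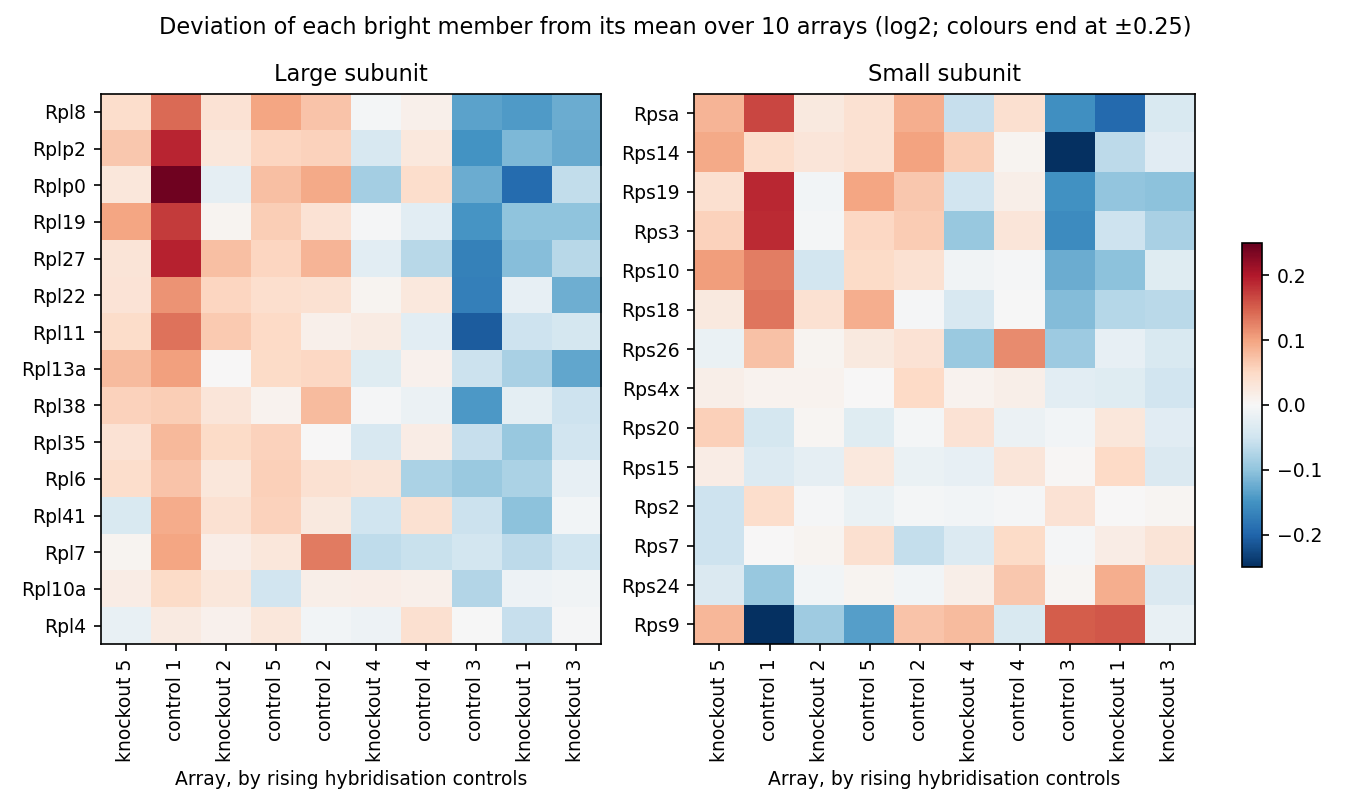
Deviation of each bright member (mean log2 of 10 or more, brightest probe set only) from its own mean over the 10 arrays, in log2 units, with arrays in order of rising hybridisation controls and colours ending at 0.25 either side. In the large subunit panel every member has a lower mean on the 3 arrays on the right than on the others. Some, such as Rpl4 and Rplp0, also lie below their own mean on arrays further left. In the small subunit panel the probe set of Rps9 goes the other way. Those of Rps2, Rps7, Rps15, Rps20 and Rps24 shift by at most 0.03.

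Large subunit members had a median correlation of 0.79 between pairs after group means were removed, and small subunit members 0.03. Between a large and a small subunit member the median was 0.27, and between any 2 genes tested 0.17. These values describe 10 arrays that share the same hybridisation differences, and the values depended on the probe sets. With _x_at and _s_at probe sets left out, a choice made after seeing the data, the medians were 0.73 (large), 0.32 (small) and 0.59 (between subunits). On the 3 arrays Rpsa, also known as the laminin receptor, differed from the rest by -0.18, Rps14 by -0.18, Rps19 by -0.17 and the dimmer Rps25 by -0.24. Small subunit shifts of at most 0.03 in size were those of Rps20 (-0.0026), Rps15 (0.0085), Rps2, Rps6, Rps7 and Rps24, as was that of the large subunit member Rpl4, and Rps9 was higher by 0.14. These are shifts of the brightest probe set alone. The other bright Rps9 probe set was lower by the same measure (-0.21), as were a second Rps7 probe set (-0.08) and dim ones of Rps20 (-0.46) and Rps24 (-0.77). Other bright probe sets of Rps24 (0.04 to 0.05) and Rps20 (0.02) were not lower. Probe sets of both signs were found on the 3 arrays in 6 of 9 small and 1 of 6 large subunit members with at least 2 tested. For this count, too, the share over all genes was not computed.

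**Figure D4:**
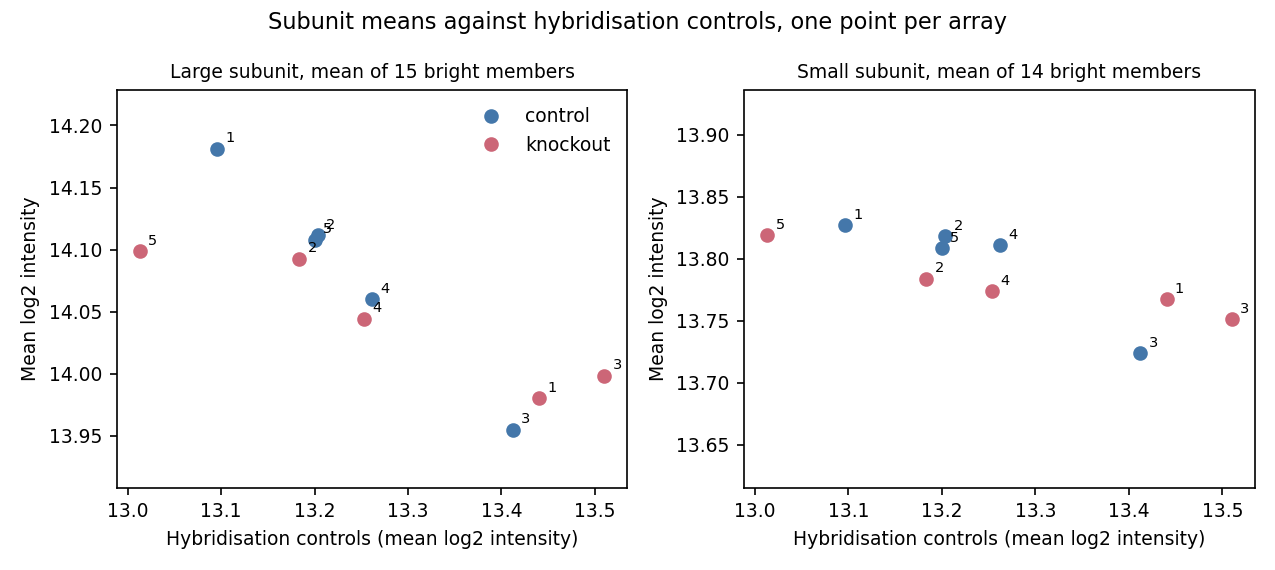
Mean log2 intensity of the 15 bright large and 14 bright small subunit members against the mean of the hybridisation controls, with a point for each array, numbered by replicate, and equal vertical spans. Large subunit means run from 13.95 to 14.18 and small subunit means from 13.72 to 13.83, lowest in both panels for control 3, and the genotypes are mixed along each axis.

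With the hybridisation controls as a covariate in the fit, again no member passed (0.227% of probe sets were called higher and 0.113% lower). At an unadjusted p under 0.05, 1 member was lower (Rpl14, -0.40, adjusted p = 0.299) and none higher, where 5.94% and 8.11% of all genes were. Medians were -0.03 for the large and -0.02 for the small subunit. Without the 3 arrays none passed either, and Rplp0 had -0.14 and Rps6 -0.17.

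Another 20 members had no probe set that names them alone and were not analysed here. They were Rpl3, Rpl5, Rpl9, Rpl10, Rpl13, Rpl15, Rpl17, Rpl18, Rpl23, Rpl24, Rpl28, Rpl29, Rpl30, Rpl32, Rpl34, Rpl36, Rplp1, Rps13, Rps21 and Rps23. For 19 of them the annotation pairs the gene with others on the same probe set. Rpl37 and Rps16 had a single-symbol probe set near the floor of the scale, at 2.50 to 2.53 and 2.15 to 2.17. A probe set at the floor gives no level for the gene, and neither was tested.

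Other genes of the translation machinery were taken next. Of 25 further cytosolic ribosomal protein genes 7 were tested, 6 with lower means, and none passed (median -0.03). Those of lowest p were Rps3a1 (-0.08), Fau, which encodes Rps30 fused to a ubiquitin-like protein (-0.07), and Rpl37a (-0.05). Of 8 paralogues of ribosomal proteins 4 were tested and none passed. Rpl3l, the form of Rpl3 that striated muscle uses, lay at 13.16, 13.16, 12.89, 12.90 and 13.01 in controls and at 12.94, 13.18, 12.84, 13.08 and 13.14 in knockouts. The groups overlapped over nearly their whole range, with a difference of 0.01 ± 0.09 (SE, adjusted p = 0.994). Rps27l, a p53-responsive form of Rps27, had 0.09, Rpl22l1 -0.08 and Rpl7l1 -0.03.

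Translation factors and associated genes of the TOP class had 6 of 17 lower means and a median of 0.02, with none past the threshold. Eef1a1, which brings aminoacyl-tRNA to the ribosome, had -0.24 ± 0.10 (SE, adjusted p = 0.602), Eif3e 0.13 and Gas5, the host of several small nucleolar RNAs, -0.15. The set for mTOR and translation control had 6 of 13 lower means and a median of 0.02, with none past the threshold. Akt2, a kinase upstream of mTOR, had 0.29 ± 0.15 (SE, adjusted p = 0.715), Eif4ebp2 0.15 and Eif4ebp1 0.21. Larp1, which binds TOP messages, had 0.10, and Mtor itself -0.05. Proteins of the mitochondrial ribosome, which translates the mitochondrial genome, had higher means in 51 of 74 (median 0.03) and lower in 23, again with none past the threshold. Mrpl50 (0.19, adjusted p = 0.649), Mrps2 (0.19) and Mrps17 (0.18) had the lowest p. The opposite leanings of the cytosolic and mitochondrial sets were not tested against each other.

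The RNA core of the small subunit, 18S ribosomal RNA, is read by 3 array control probe sets that were not part of the fit. The middle probe set had a mean of 12.19 (SD 0.19) over the 5 controls and 12.39 (SD 0.24) over the 5 knockouts, an exact permutation p of 0.198 (two-sided), or 0.298 adjusted over the 3. For the 3' probe set the difference was 0.22 (exact permutation p = 0.135) and for the 5' one 0.20 (p = 0.571). None passed with 5 arrays a group, and how far the labelling covers RNA without a poly(A) tail is not given in the sources used here.

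The tissue carried its defining markers: all 13 muscle fibre genes were tested, with a median level of 15.08. In bulk muscle, fewer cells of a type and less RNA per cell cannot be told apart. Markers of several other cell types had lower means in knockouts. Lower means in knockouts were found for 10 of 10 fibroblast genes (list mean per array 10.69 to 11.03 in controls, 10.10 to 10.67 in knockouts), 1 of which (Col1a2, a collagen chain) passed, and for 8 of 8 tendon genes (8.59 to 9.26 against 7.54 to 8.88). They were also found for 9 of 9 macrophage and leukocyte genes (8.28 to 9.01 against 7.44 to 8.80), 8 of 9 endothelial, 5 of 6 smooth muscle and 5 of 5 Schwann cell genes, but for 2 of 5 adipocyte and 1 of 3 erythroid genes. The listed genes with a single-symbol probe set that were too dim to test were Cnn1 (smooth muscle), Lep (adipocyte), Hba-a1 and Slc4a1 (erythroid). Their part in the levels of the members was not tested. The 3' to 5' difference of the Gapdh control probe sets, a sign of RNA integrity, had a mean of 0.49 (SD 0.03) over the 5 controls and 0.45 (SD 0.03) over the 5 knockouts. For the actin control probe sets it was 1.47 (SD 0.06) and 1.40 (SD 0.05). The sample titles hold no more than the genotype and number. The p-values set a difference between groups against the spread within groups of these 10 animals.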

How the data were processed

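The deposited table holds linear intensity values for 45101 probe sets on 10 arrays. Per the submitters' processing notes they were made with GCRMA, which corrects background, normalizes between arrays and summarises probes (version and settings not given in the sources used here). The intensity on the log2 scale was analysed with no further normalization. GCRMA leaves dim probe sets near a floor. Probe sets were named by the platform annotation (34958 with 1 symbol, 932 with several, 9211 unlisted), and only those with 1 symbol were named. The brightest over all arrays stood for a gene. Probe sets with a mean log2 of 4 or more, without 64 array controls, were fitted (21154 probe sets, 10704 genes) with limma 3.58.1 (lmFit, eBayes, two-sided, Benjamini-Hochberg over all, threshold 0.05) in R 4.3.3. The fit was also run on simulated data with independent noise and changes larger than any member's difference here. That run therefore does not bear on small differences or on members that vary together. Arrays have no read depth, so their number limits precision.

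The members and lists were chosen with earlier results of these data known. Named with values are, per subunit, the 3 members of lowest p, the 2 brightest, 2 dimmest and 2 most variable; other members are named for their role or, for probe sets that disagree and shifts on the 3 arrays, after their values were seen. Of the other lists of translation genes the 3 genes of lowest p and tested paralogues are named, with Larp1 and Mtor added for their role. Of the cell type lists, only Col1a2, which passed, and the genes too dim to test are named. Levels of different probe sets do not rank transcripts. Promoters are from RefSeq (GRCm38.p6), and 55 of 55 members matched the gene table. Figures used matplotlib 3.10.9 in Python 3.11.15.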

Additional observations from a re-analysis of the deposited data

Results flagged for a closer look

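Of 38 groups of 5 arrays examined for an array far from the others (named members, tested paralogues and subunit means), 1 held such an array, where chance gives about 1 in 20, or 1.9. The mean of the small subunit members on control 3 was 13.14 (log2), while the other controls lay between 13.23 and 13.24. Control 3 also had the brightest hybridisation controls of its group.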

How the results depend on the processing

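The counts of 0 members called higher and 0 called lower were the same under each alternative: no filter, a filter at 6, quantile normalization, median centring, a variance trend with robust fit, array weights, the replicate block, the hybridisation control covariate, the mean of probe sets and each array left out. They were also 0 under 3 alternatives chosen after seeing the data (without 3 arrays, without _x_at and _s_at probe sets, bright members alone). The lowest adjusted p of a member under the alternatives was 0.299. With each array left out the large subunit median ran from -0.08 to -0.02, the small subunit median from -0.05 to -0.02 and the large minus small difference from -0.05 to 0.02. That last difference was positive without control 1 (0.02), without knockout 1 (0.02), with the covariate (0.0056) and without the 3 arrays (0.0060), so it has no settled sign. The small subunit median was -0.06 without _x_at and _s_at probe sets. Among 12 named members the sign changed for Rps24 under 5 alternatives, Rpl12 under 2 and Rpl35 under 1. Over all probe sets 21 passed. Under the alternatives this was 11 with no filter, 36 with quantile normalization, 58 with trend and robust fit, 67 with array weights, 72 with the covariate, 5 without the 3 arrays and 1 to 17 with each array left out. Without control 3, 2 members had an unadjusted p under 0.05, both lower, and 29 of 33 members had lower means. Without knockout 5 there were also 2, both lower, and 26 of 33 had lower means. Only 1 member, lower, had such a p with quantile normalization, median centring, array weights or the covariate. The same count was found without knockout 2 and without knockout 4. With no filter there was 1, higher. Blocking on replicate number left 1 call, not a member. Arrays sharing a number had deviations that correlated at -0.51, 0.13, 0.62, -0.20 and 0.19, so the numbers were not taken to pair the mice. Compression of bright signals in the 28 members at 13 or more was not tested, and the spread of a dim probe set limits Rpl12.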

Other observations

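A pair of ribosomal protein paralogues lay near the floor and were not tested. Rpl39l had 5.89 on knockout 3 and 2.72 to 4.03 on the other arrays, and Rps4l ran from 2.66 to 5.02.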
